A study of Oryza sativa Japonica Group with 12 samples.

Results

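The genes described here encode enzymes that build the diterpenoid phytoalexins of rice. They were chosen by name: a gene was included when its symbol or synonym in the array annotation, with or without the prefix Os, was *CPS2*, *CPS4*, *KSL4*, *KSL7*, *KSL8*, *KSL10*, *CYP99A3*, *CYP76M7* or *CYP76M8*. Of these 9 names, 8 were found, each with 1 probe set, among the 23837 genes that had a probe set of their own on the array. *KSL8*, the stemarene synthase of the oryzalexin S branch, had no entry in the annotation used and was not analysed here. The samples were whole plants of *japonica* rice at the tillering stage, raised in a greenhouse without artificial climate control or any further treatment. The parents were the varieties ‘CH7’ (‘Aranghyangchalbyeo’, which carries the hybrid weakness gene *Hwc3* with a retrotransposon in its promoter), ‘CH8’ (‘Sanghaehyangheolua’, which carries *Hwc1*) and ‘CH9’ (‘Shinseonchalbyeo’), and the F1 hybrids were ‘CH7/8’, ‘CH7/9’ and ‘CH8/9’, labelled CH78, CH79 and CH89. Hybrid weakness is poor growth of F1 plants whose parents grow normally, and the hybrids here were plants of that kind. Each of the 6 lines had 2 arrays, labelled as biological replicates, so that 12 Affymetrix arrays were compared.

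Rice makes momilactones, phytocassanes and oryzalexins as antimicrobial defence compounds, and momilactones are also released from its roots. Their synthesis starts from geranylgeranyl diphosphate, which a copalyl diphosphate synthase folds into either the *ent* or the *syn* form. A kaurene synthase-like enzyme closes the remaining ring, and cytochrome P450 enzymes then add oxygen. The *ent* form is shared with gibberellin synthesis, for which rice uses separate enzymes, and the defence genes are known to be induced by fungal elicitors and ultraviolet light.

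Values are log2 of the deposited intensity, and a signed difference names the line that was subtracted. The array medians lay between 3.45 and 3.64 log2 units, and the correlation of replicate arrays over all probe sets was 0.966 to 0.984. Some arrays correlated better with an array of another line than with their own replicate. ‘CH7/8’ replicate 1 was closest to ‘CH9’ replicate 2 (0.980, against 0.966). ‘CH7/8’ replicate 2 and ‘CH8/9’ replicate 1 were closest to each other (0.984, against 0.966 and 0.981). ‘CH7/9’ replicate 1 was closest to ‘CH7’ replicate 1 (0.983, against 0.968), and ‘CH8’ replicate 1 to ‘CH8/9’ replicate 1 (0.982, against 0.969). The mean signal lay below the median of all probe sets for 6 members and above it for *CPS4* and *KSL4*. Of the green shoot markers 3 of 11 and of the root markers 10 of 13 were found, among them the chlorophyll-binding protein gene *CAB2R* at 5.97 to 7.90 and the root silicon transporter gene *LSI1* at 4.26 to 6.22. Other markers of these lists were dim: *CAB1R* (1.84 to 3.24) and the root markers *SCR1* (1.83 to 2.35), *NRT2.1* (1.48 to 1.76) and *PIN2* (1.21 to 2.09). The seed and endosperm markers (5 of 5) stayed between 1.05 and 2.69, a range that overlapped those of the dim green shoot and root markers. Of the 7 panicle and flower markers, 4 were highest in ‘CH8/9’ replicate 2, where *MADS1* reached 4.92. All 7 were above their own means on that array and also on ‘CH7/9’ replicate 2. The brightest of them peaked elsewhere, *MADS14* at 8.99 in ‘CH7/9’ replicate 2 and *MADS15* at 7.76 in ‘CH7’ replicate 2. Their summed intensity was highest in ‘CH7’ replicate 2 (742, against 500 in ‘CH8/9’ replicate 2). In whole plants, fewer cells of a type and less RNA per cell cannot be told apart.

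**Figure D1:**
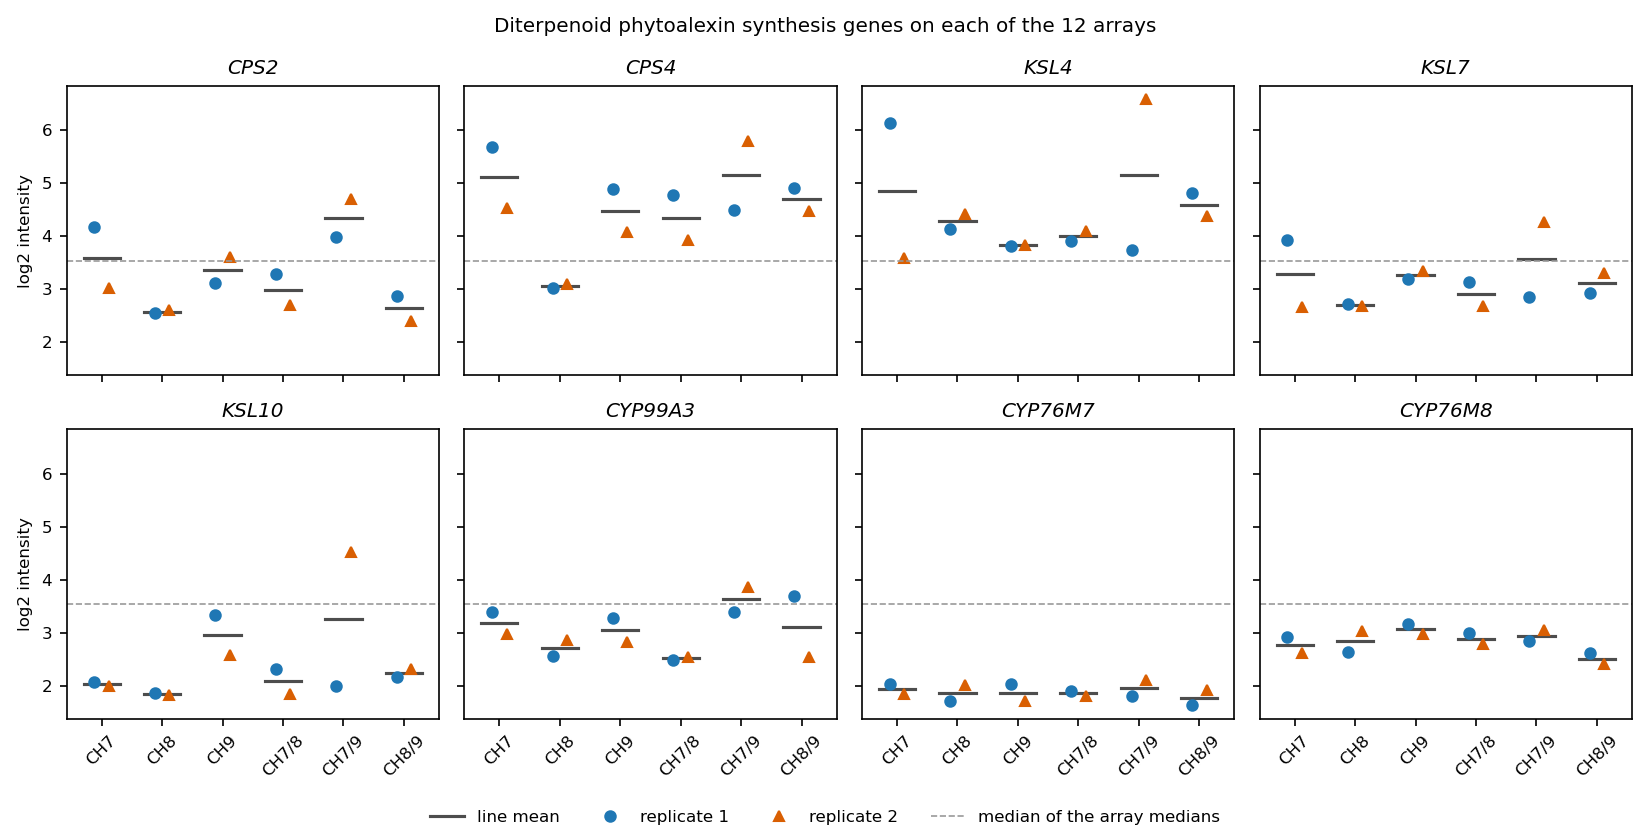
Log2 intensity of the 8 measured genes on each of the 12 arrays, with 1 panel per gene, the lines along the horizontal axis, circles for replicate 1, triangles for replicate 2, a bar at the mean of each line and a dashed line at the median of the array medians. Both ‘CH8’ arrays lay at the bottom of the *CPS4* panel at 3.02 and 3.09, and the tops of the *KSL4* panel were ‘CH7/9’ replicate 2 at 6.58 and ‘CH7’ replicate 1 at 6.13.

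*CPS4* encodes the *syn*-copalyl diphosphate synthase, the entry to momilactones and oryzalexin S. Its log2 intensity was 5.69 and 4.54 in ‘CH7’, 3.02 and 3.09 in ‘CH8’, 4.89 and 4.07 in ‘CH9’, 4.77 and 3.92 in ‘CH7/8’, 4.49 and 5.79 in ‘CH7/9’, and 4.92 and 4.48 in ‘CH8/9’. Both ‘CH8’ arrays were below the other 10, and the other lines overlapped each other. *CPS4* was the only member with this order for ‘CH8’, which held for 3.95% of all probe sets. The line means fell in the order ‘CH7/9’ (5.14 ± 0.92, SD, n = 2), ‘CH7’ (5.11 ± 0.81), ‘CH8/9’ (4.70 ± 0.31), ‘CH9’ (4.48 ± 0.58), ‘CH7/8’ (4.35 ± 0.60) and ‘CH8’ (3.06 ± 0.05).

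*CPS2* encodes the *ent*-copalyl diphosphate synthase that serves phytocassanes and most oryzalexins. It measured 4.16 and 3.02 in ‘CH7’, 2.55 and 2.60 in ‘CH8’, 3.11 and 3.60 in ‘CH9’, 3.28 and 2.70 in ‘CH7/8’, 3.99 and 4.70 in ‘CH7/9’, and 2.88 and 2.39 in ‘CH8/9’. The highest line mean was that of ‘CH7/9’ (4.34 ± 0.50), followed by ‘CH7’ (3.59 ± 0.81), ‘CH9’ (3.36 ± 0.35), ‘CH7/8’ (2.99 ± 0.40), ‘CH8/9’ (2.64 ± 0.34) and ‘CH8’ (2.58 ± 0.04). As with *CPS4*, ‘CH7/9’ and ‘CH7’ led and ‘CH8’ was last. The arrays of each line overlapped those of its neighbour in this order.

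*KSL4*, the pimaradiene synthase that follows *CPS4* towards momilactones, measured 6.13 and 3.58 in ‘CH7’, 4.13 and 4.42 in ‘CH8’, 3.81 and 3.83 in ‘CH9’, 3.91 and 4.10 in ‘CH7/8’, 3.74 and 6.58 in ‘CH7/9’, and 4.82 and 4.37 in ‘CH8/9’. Its 2 highest and 2 lowest values came from the same pair of lines, ‘CH7’ and ‘CH7/9’, whose SDs were 1.81 and 2.01, whereas the SD in the other lines was at most 0.32. The order of its line means, with ‘CH7/9’ (5.16) and ‘CH7’ (4.85) ahead of ‘CH8/9’ (4.59), therefore rested on 1 array of each of the leading lines.

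*KSL7*, the cassadiene synthase of the phytocassane branch, measured 3.92 and 2.67 in ‘CH7’, 2.71 and 2.68 in ‘CH8’, 3.20 and 3.34 in ‘CH9’, 3.14 and 2.68 in ‘CH7/8’, 2.85 and 4.27 in ‘CH7/9’, and 2.93 and 3.31 in ‘CH8/9’. The same arrays, ‘CH7’ replicate 1 and ‘CH7/9’ replicate 2, were again the highest. *KSL10*, the sandaracopimaradiene synthase of the oryzalexin branch, measured 2.07 and 2.00 in ‘CH7’, 1.86 and 1.82 in ‘CH8’, 3.33 and 2.57 in ‘CH9’, 2.32 and 1.84 in ‘CH7/8’, 1.99 and 4.51 in ‘CH7/9’, and 2.16 and 2.3 in ‘CH8/9’. Its ‘CH7’ arrays were alike, and after ‘CH7/9’ (3.25 ± 1.79) its next line mean was that of ‘CH9’ (2.95 ± 0.54).

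Among the P450 genes, *CYP99A3*, whose product oxidises the *syn*-pimaradiene made by *KSL4*, measured 3.39 and 2.97 in ‘CH7’, 2.56 and 2.85 in ‘CH8’, 3.27 and 2.82 in ‘CH9’, 2.49 and 2.54 in ‘CH7/8’, 3.40 and 3.85 in ‘CH7/9’, and 3.70 and 2.53 in ‘CH8/9’. Its line means ran from 3.62 ± 0.32 in ‘CH7/9’ to 2.51 ± 0.04 in ‘CH7/8’. *CYP76M8*, a hydroxylase that accepts several of the diterpene olefins, stayed between 2.40 and 3.16 on all arrays. Both of its ‘CH8/9’ values (2.61 and 2.40) lay below the other 10 arrays, an order held by 3.05% of all probe sets and by no other member. *CYP76M7*, a hydroxylase of cassadiene, was between 1.62 and 2.11, at percentiles 8.07 to 19.0 of its arrays. Differences of a signal this dim can be compressed, and its order of lines was within the spread of the replicates.

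The members on chromosomes 2 and 4 lie in known clusters. In the RefSeq annotation of assembly ASM3414082v1, *CYP76M8*, *KSL7* and *CPS2* stood close together on chromosome 2, among *CYP76M5*, *CYP71Z6*, *CYP71Z7*, *KSL5*, *KSL6* and *CYP76M6*. On chromosome 4, *CPS4* and *CYP99A3* were direct neighbours and *KSL4* followed beyond the momilactone A synthase gene *MAS*. *KSL10* lies alone on chromosome 12. The entry that carries the name *CYP76M7* was placed on chromosome 6, away from its namesakes, so the identity of that probe set is uncertain. The P450 and synthase genes of a cluster are close relatives, and cross-hybridization between them was not tested.

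The first question was whether the parents differed. *CPS4* was lower in ‘CH8’ than in ‘CH7’ by the widest margin of the members: the difference was -2.06 (SE 0.52, 95% interval -3.24 to -0.88), which put ‘CH8’ at 0.240 of the ‘CH7’ level, with an adjusted p of 0.0617. A probe set was called when it differed by 2-fold or more with an adjusted p not above 0.05, a threshold that *CPS4* missed. Without ‘CH7’ replicate 1 the difference was -1.48 with an adjusted p of 0.322. It was called with array weights (adjusted p = 0.0493), among the brighter probe sets alone (0.0451), with 1 value per gene (0.0434) and without either ‘CH7/9’ array (0.0497 each time). Hence the *CPS4* difference stood at the edge of the call. Its direction was the same in every setting tried, but settings that leave the ‘CH7’ and ‘CH8’ values as they are could not change it.

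No member was called between ‘CH8’ and ‘CH7’, a comparison in which 3.69% of all probe sets were called. At an unadjusted p under 0.05 there were 2 members, *CPS4* and *CPS2*, both lower in ‘CH8’, against 20.6% of all probe sets in either direction and 13.5% lower. *CPS2* differed by -1.02 (SE 0.40, adjusted p = 0.191). The ‘CH8’ and ‘CH7’ arrays did not overlap for 4 members, *CPS2*, *CPS4*, *KSL10* and *CYP99A3*, all with ‘CH8’ below, as for 31.8% of all probe sets. The median difference of the members was -0.53, against -0.05 for all probe sets, and 7 of 8 were below 0, as were 56.4% of all probe sets. Without ‘CH7’ replicate 1 the members' median was -0.06.

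For *CPS4*, ‘CH9’ stood between the other parents. No member was called in ‘CH9’ minus ‘CH8’ (0.586% of all probe sets called) and 1 member, *CPS4*, had an unadjusted p under 0.05 (8.83% of all), with a difference of 1.42 (SE 0.52, adjusted p = 0.430). The 4 members whose ‘CH9’ arrays were both above the ‘CH8’ arrays were *CPS2*, *CPS4*, *KSL7* and *KSL10*, an order held by 20.8% of all probe sets. *KSL4* had the opposite order, as had 19.3%. No member was called in ‘CH9’ minus ‘CH7’ (0.375% called) and none had an unadjusted p under 0.05 (12.6%), although the ‘CH9’ arrays were both above the ‘CH7’ arrays for *KSL10* and *CYP76M8* (20.4% of all). *KSL10*, at 0.92 (SE 0.65), had the highest of these differences and *KSL4*, at -1.03 (SE 0.92), the lowest. Both intervals included 0, and that of *KSL4* ran from -3.12 to 1.06.

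**Figure D2:**
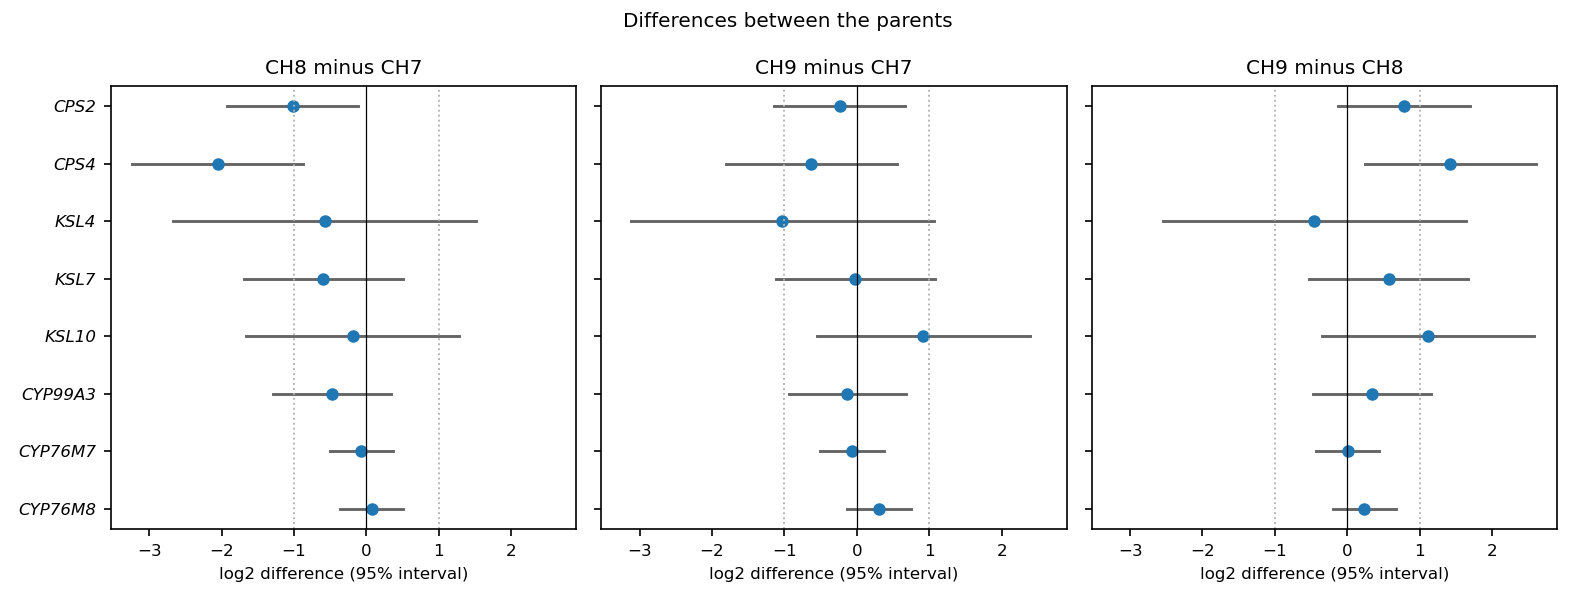
Differences between the parents for each of the 8 genes in log2 units, with 1 panel per pair of parents, points at the fitted difference, bars over the 95% interval of the limma fit and dotted lines at a 2-fold change. The interval of *CPS4* in ‘CH8’ minus ‘CH7’ ran from -3.24 to -0.88, the *KSL4* intervals were the widest, and those of *CYP76M7* and *CYP76M8* stayed within 2-fold.

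The next question was whether the weak hybrids differed from their parents. No member was called against either parent in any hybrid. Beside that 0, the share of all probe sets called was 0.228% for ‘CH7/8’ minus ‘CH7’, 0.106% for ‘CH7/8’ minus ‘CH8’, 0.0473% for ‘CH7/9’ minus ‘CH7’, 0.0346% for ‘CH7/9’ minus ‘CH9’, 0.151% for ‘CH8/9’ minus ‘CH8’ and 0.1% for ‘CH8/9’ minus ‘CH9’. At an unadjusted p under 0.05 no member was found in ‘CH7/8’ minus ‘CH7’ (12% of all probe sets) or in ‘CH7/9’ minus ‘CH7’ (8.16%). The other 4 comparisons gave 1 member each, against 6.66%, 11.7%, 9.13% and 6.47% of all probe sets in the order above.

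*CPS4* was that member in both comparisons with ‘CH8’. It stood above ‘CH8’ by 1.29 (SE 0.52, adjusted p = 0.707) in ‘CH7/8’ and by 1.64 (SE 0.52, adjusted p = 0.393) in ‘CH8/9’, and the arrays did not overlap in either case. The same order was held by 2 members, *CPS2* and *CPS4*, in ‘CH7/8’ (19.3% of all probe sets) and by 3, *CPS4*, *KSL7* and *KSL10*, in ‘CH8/9’ (21%). The opposite order, with the hybrid below ‘CH8’, was held by *KSL4* and *CYP99A3* in ‘CH7/8’ (14.5%) and by *CYP76M8* in ‘CH8/9’ (19.4%). All 4 comparisons of ‘CH8’ with another line in which *CPS4* was described share the same ‘CH8’ arrays. *CPS2* was the member in ‘CH7/9’ minus ‘CH9’, at 0.99 (SE 0.40, adjusted p = 0.399), and *CYP76M8* in ‘CH8/9’ minus ‘CH9’, at -0.57 (SE 0.19, adjusted p = 0.717). *KSL10*, at 1.21 (SE 0.65, adjusted p = 0.636) in ‘CH7/9’ minus ‘CH7’, rested on ‘CH7/9’ replicate 2. When ‘CH7/9’ replicate 1 was left out it was called there (adjusted p = 0.0279) and against the mid-parent value (0.0302), with the remaining array assumed to vary like the other lines.

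Against the mean of their parents, the mid-parent value, no member was called in ‘CH7/8’ (0.00546% of all probe sets called), ‘CH7/9’ (0.00182%) or ‘CH8/9’ (0.0164%). The members with an unadjusted p under 0.05 numbered 0 in ‘CH7/8’ (4.13% of all), 1 in ‘CH7/9’ (9.34%) and 1 in ‘CH8/9’ (7.36%). They were *CPS2* in ‘CH7/9’, at 0.87 (SE 0.35, adjusted p = 0.522), and *CYP76M8* in ‘CH8/9’, at -0.45 (SE 0.17, adjusted p = 0.650). In ‘CH7/9’ all 8 differences were above 0 with a median of 0.43, against a median of 0.08 and 37.2% below 0 for all probe sets. Without ‘CH7/9’ replicate 2 this median was -0.20, so its direction was set by 1 array. The median was -0.07 in ‘CH7/8’ and 0.02 in ‘CH8/9’. When the departures of the hybrids were compared with each other, no member was called between ‘CH7/8’ and ‘CH7/9’ (0.0127% of all probe sets called), ‘CH7/8’ and ‘CH8/9’ (0.00182%) or ‘CH7/9’ and ‘CH8/9’ (0.00364%), and each comparison had 1 member with an unadjusted p under 0.05 (7.66%, 4.14% and 12.8% of all).

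Over the 3 hybrids against the 3 parents no member was called (0.0091% of all probe sets called) and none had an unadjusted p under 0.05 (4.87%). The member furthest from 0 was *CPS4*, at 0.51 (SE 0.30, adjusted p = 0.940). The members' median was 0.13, and it was -0.10 without ‘CH7/9’ replicate 2 and -0.05 without ‘CH7’ replicate 2. In the moderated F test for any difference among the 6 lines no member was called (1.77% of all probe sets called), and 2, *CPS2* (adjusted p = 0.175) and *CPS4* (0.237), had an unadjusted p under 0.05 (16.5%).

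**Figure D3:**
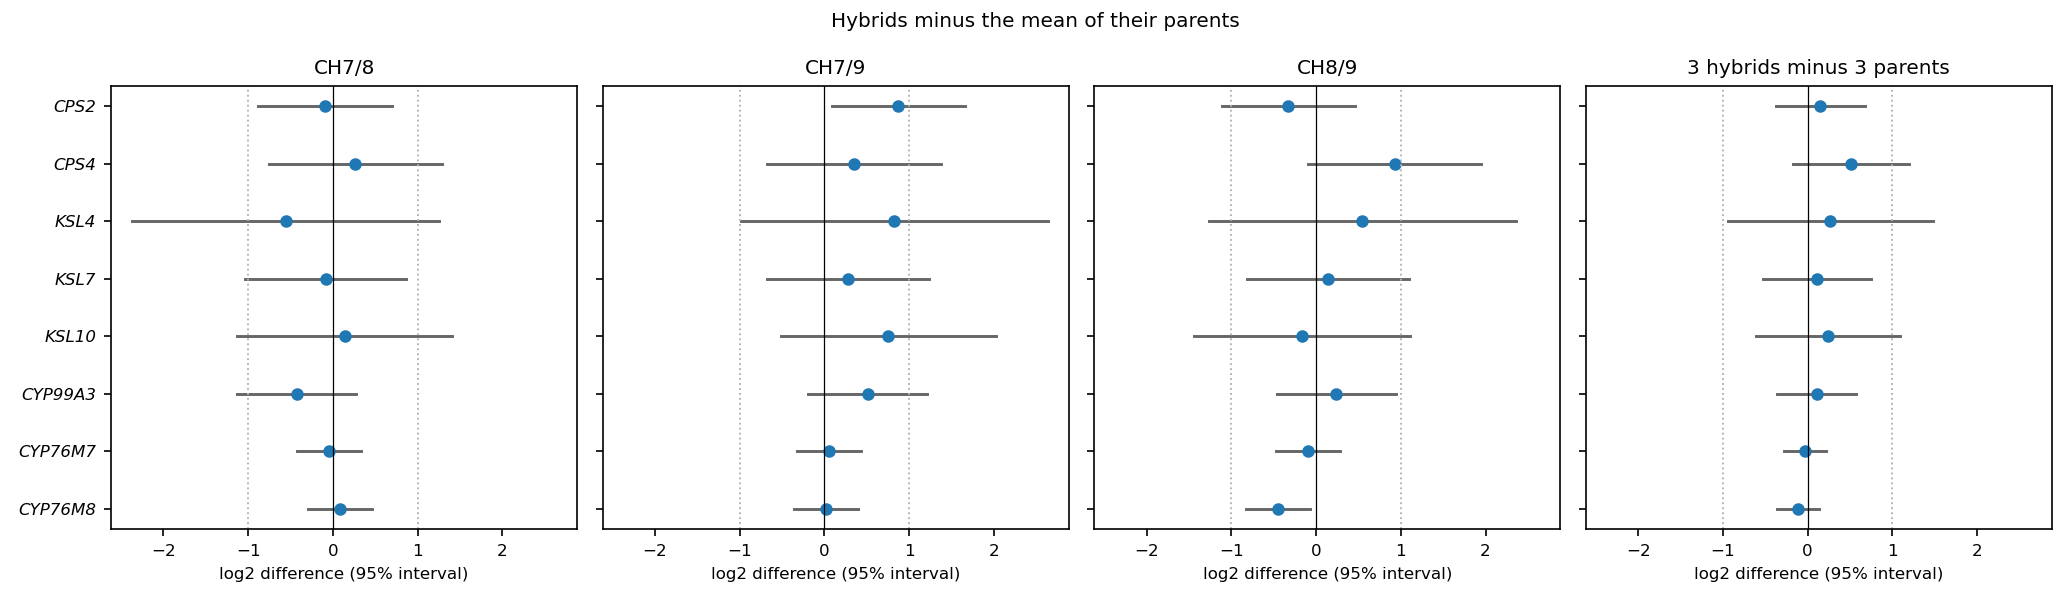
Differences of each hybrid from the mean of its parents, and of the 3 hybrids from the 3 parents, in log2 units for the 8 genes, with points at the fitted difference, bars over the 95% interval of the limma fit and dotted lines at a 2-fold change. The intervals of *CPS2* in ‘CH7/9’ (difference 0.87) and *CYP76M8* in ‘CH8/9’ (-0.45) were the only ones that left out 0.

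For the members, the replicate arrays differed most in ‘CH7’ and ‘CH7/9’, whereas over all probe sets the ‘CH7’ replicates were among the most alike. In ‘CH7’ all 8 members were higher in replicate 1, as were 49.7% of all probe sets, and *CPS2*, *CPS4*, *KSL4* and *KSL7* were at least 2-fold apart, as were 2.39% of all probe sets. The gap of *KSL4* was 2.55 log2 units, and the median gap of the members was 0.78. In ‘CH7/9’ all 8 were higher in replicate 2, whereas replicate 1 was the higher for 36.8% of all probe sets. *CPS4*, *KSL4*, *KSL7* and *KSL10* were at least 2-fold apart there (5.41% of all), *KSL4* by 2.84 and *KSL10* by 2.53 log2 units in size. The other lines held 1 such gap in all, *CYP99A3* in ‘CH8/9’ at 1.17 (3.14% of all there).

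‘CH7/9’ replicate 2 was the highest of the 12 arrays for 7 of 8 members, all but *CYP76M8*. It was the highest for 29.7% of all probe sets, and for 38.5% of those below the median brightness, where most members lie. ‘CH7’ replicate 1 and ‘CH7/9’ replicate 2 together were the top pair for *CPS2*, *CPS4*, *KSL4*, *KSL7* and *CYP76M7*, 5 of 8, as for 6.6% of all probe sets. On the linear scale the summed intensity of the members was 181 and 246 on these arrays and 57.1 to 99.9 on the other 10. The probe sets as a whole were also raised on ‘CH7/9’ replicate 2, by a median of 0.14 over their own means, against 1.22 for the members. The rise was not limited to the members. On that array the median was 0.66 for other diterpenoid phytoalexin genes, 0.65 for isoprenoid precursor supply and 0.58 for phytoalexin regulators. It was -0.17 for gibberellin synthesis and -0.02 for the root markers. After quantile normalization or median centring the replicate gaps of the 8 members kept their directions in ‘CH7’ and ‘CH7/9’. In each of these lines 4 were at least 2-fold apart. With a pseudocount of 50 the directions were the same, but no member in ‘CH7’ and 1 in ‘CH7/9’ was at least 2-fold apart, and the median gaps were 0.14 and -0.24.

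**Figure D4:**
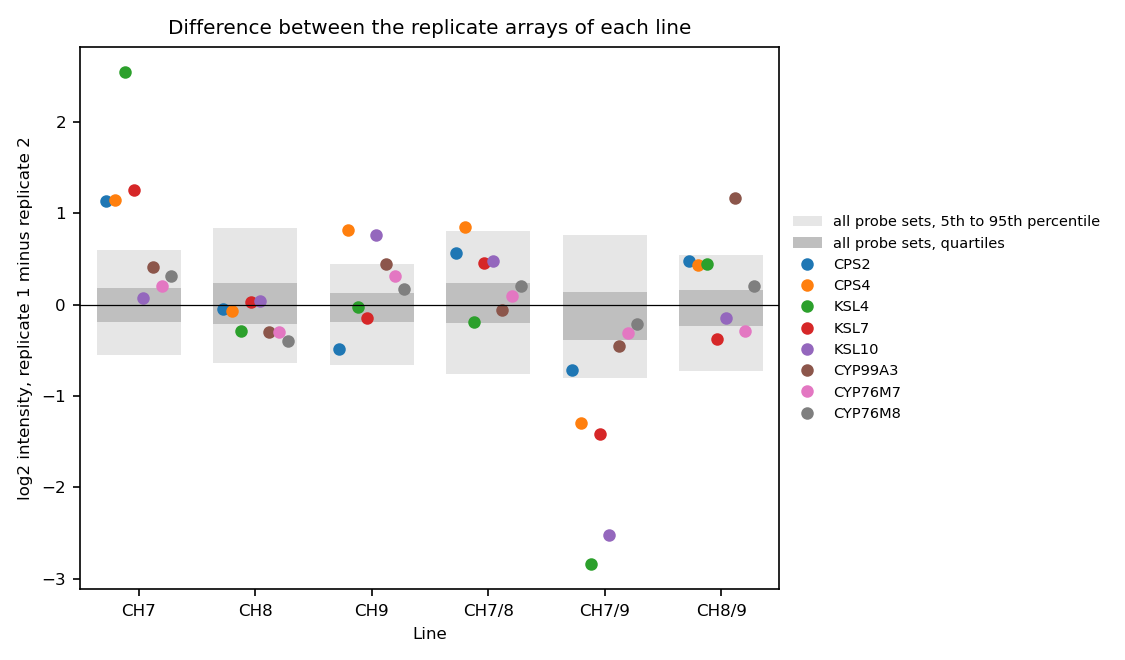
Log2 intensity of replicate 1 minus replicate 2 for each of the 8 genes in each line, with grey bands over the quartiles and the 5th to 95th percentiles of all probe sets. All 8 points lay above 0 in ‘CH7’ and below 0 in ‘CH7/9’, and the furthest were *KSL4* at 2.55 and -2.84.

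Markers of plant organs moved in part with these arrays. The 10 root markers had a summed intensity of 325 and 181 in ‘CH7’, 163 and 177 in ‘CH8’, 232 and 156 in ‘CH9’, 213 and 132 in ‘CH7/8’, 179 and 162 in ‘CH7/9’, and 168 and 129 in ‘CH8/9’. They were thus highest in ‘CH7’ replicate 1, where 7 of 10 were above their own means, but not in ‘CH7/9’ replicate 2, where 5 of 10 were. Replicate 1 of ‘CH9’ and of ‘CH7/9’ also had 7 of 10 above their means, with a median deviation of the members of 0.20 and -0.03. The 3 green shoot markers summed to 270 and 295 in ‘CH7’, 181 and 132 in ‘CH8’, 106 and 166 in ‘CH9’, 241 and 177 in ‘CH7/8’, 165 and 266 in ‘CH7/9’, and 103 and 131 in ‘CH8/9’. All 3 were above their own means on both arrays with high members, and also on ‘CH7/8’ replicate 1, where the members' median deviation was 0.01. A further list of green shoot genes, added once the annotation had been read (5 of 6 found), summed to 729 and 670 in ‘CH7’, 505 and 774 in ‘CH8’, 598 and 672 in ‘CH9’, 675 and 448 in ‘CH7/8’, 883 and 912 in ‘CH7/9’, and 388 and 471 in ‘CH8/9’. These genes were high on both ‘CH7/9’ arrays, without the gap seen for the members. The photosystem II gene *PSBW*, 1 of them, was called in the F test among the 6 lines (adjusted p = 0.0423), as were 1.77% of all probe sets. The part of organ content in the members' levels was not tested.

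The members varied together to differing degrees. Over the 12 arrays, which share lines and scaling, the Pearson r of the 28 pairs ran from 0.18 (*KSL4* and *CYP76M8*) to 0.81 (*KSL4* and *KSL7*), with a median of 0.54. *CPS4* and *KSL7* (0.77), *CPS2* and *KSL7* (0.75) and *CPS2* and *CPS4* (0.71) were also high, although *CPS4* belongs to the *syn* branch and the other genes to the *ent* branch. *CPS4* and *KSL4*, consecutive steps of momilactone synthesis, gave 0.60. When line means were removed the median was 0.64, a value that includes the replicate gaps of ‘CH7’ and ‘CH7/9’ shared by all 8 members. The medians were not compared with those of other probe sets on these arrays.

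The rest of the pathway was followed in lists of other genes. Of 19 other diterpenoid phytoalexin names 9 were measured, and none was called in any comparison of lines (1 had an unadjusted p under 0.05 in ‘CH8’ minus ‘CH7’, where 20.6% of all probe sets did). In ‘CH8’ minus ‘CH7’ the difference furthest below 0 was that of *CYP701A8* (-1.58, SE 0.48, adjusted p = 0.105), a P450 related to kaurene oxidase that acts on the phytoalexin olefins, and *MAS* was at the other end (0.14). *CYP701A8* measured 5.11 and 3.62 in ‘CH7’, 3.26 and 2.3 in ‘CH8’, 3.65 and 4.16 in ‘CH9’, 3.79 and 3.28 in ‘CH7/8’, 5.05 and 4.65 in ‘CH7/9’, and 3.69 and 3.43 in ‘CH8/9’. Its high and low lines were thus those of *CPS4*: ‘CH7/9’ and ‘CH7’ on top and ‘CH8’ at the bottom.

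Of 19 precursor supply names 7 were measured, and 1 was called in ‘CH8’ minus ‘CH7’, against 3.69% of all probe sets. *CLA1*, which encodes 1-deoxyxylulose 5-phosphate synthase at the entry to the plastid isoprenoid pathway, rose in ‘CH8’ against ‘CH7’ by 2.02 (SE 0.43, adjusted p = 0.0340). It measured 4.89 and 5.68 in ‘CH7’ and 6.82 and 7.79 in ‘CH8’, opposite in sign to *CPS4* in the same comparison. *CMS*, a later gene of that pathway, was the lowest of the list (-0.67, adjusted p = 0.0595). *CLA1* was the exception in its list. All other measured genes had their highest line mean in ‘CH7/9’ or ‘CH7’ and their lowest in ‘CH8’ or ‘CH8/9’. ‘CH7/9’ replicate 2 was the highest array for 5 of the 7 genes, as for 29.7% of all probe sets. Of 11 gibberellin names 6 were measured and none was called (3 at an unadjusted p under 0.05 in ‘CH8’ minus ‘CH7’, against 20.6% of all). Its ends were *KS1*, the kaurene synthase (-1.17, adjusted p = 0.0533), and *CPS1*, the gibberellin counterpart of *CPS2* (2.15, adjusted p = 0.176), so that the *ent*-copalyl diphosphate synthases of defence and of hormone synthesis had differences of opposite sign, neither of them called.

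Of 13 regulator names 4 were measured and none was called (1 at an unadjusted p under 0.05 in ‘CH8’ minus ‘CH7’, against 20.6% of all). Their differences in ‘CH8’ minus ‘CH7’ were all below 0, from -1.0 for the bZIP gene *TGAL4* (SE 0.52) to -0.22 for the kinase gene *MPK6* (SE 0.18). *WRKY62* and *WRKY76* lay between these ends. The names *DPF*, *TGAP1*, *WRKY45* and *WRKY53* had no entry, and the list did not separate activators from repressors. The entry named *MPK6* lay on chromosome 10. The name *MAPK6* matched 2 genes, on chromosomes 5 and 6, and was left out, so the identity of the kinase measured is uncertain. Of 17 names of other induced defence genes 4 were measured and none was called (4 at an unadjusted p under 0.05 in that comparison, against 20.6% of all), with *PBZ1*, a pathogenesis-related gene induced by probenazole, at -1.67 (SE 0.70, adjusted p = 0.219) and the phenylalanine ammonia-lyase gene *PAL* at 0.58 (SE 0.17, adjusted p = 0.0982). *PBZ1* measured 5.88 and 3.39 in ‘CH7’ and 4.01 and 5.06 in ‘CH7/9’, and 2.55 to 3.32 in the other lines, so that its highest arrays were those on which the phytoalexin genes were high. The other measured genes of the list did not share that top pair. *PAL* was highest in ‘CH8’ replicate 1 (6.81), and its lowest line mean was that of ‘CH7/9’. *CHT8* was high on both ‘CH7/9’ arrays (6.77 and 6.81). *AOS2* was highest in ‘CH7’ replicate 1 (7.68) and next in ‘CH7/8’ replicate 1 (7.31).

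**Figure D5:**
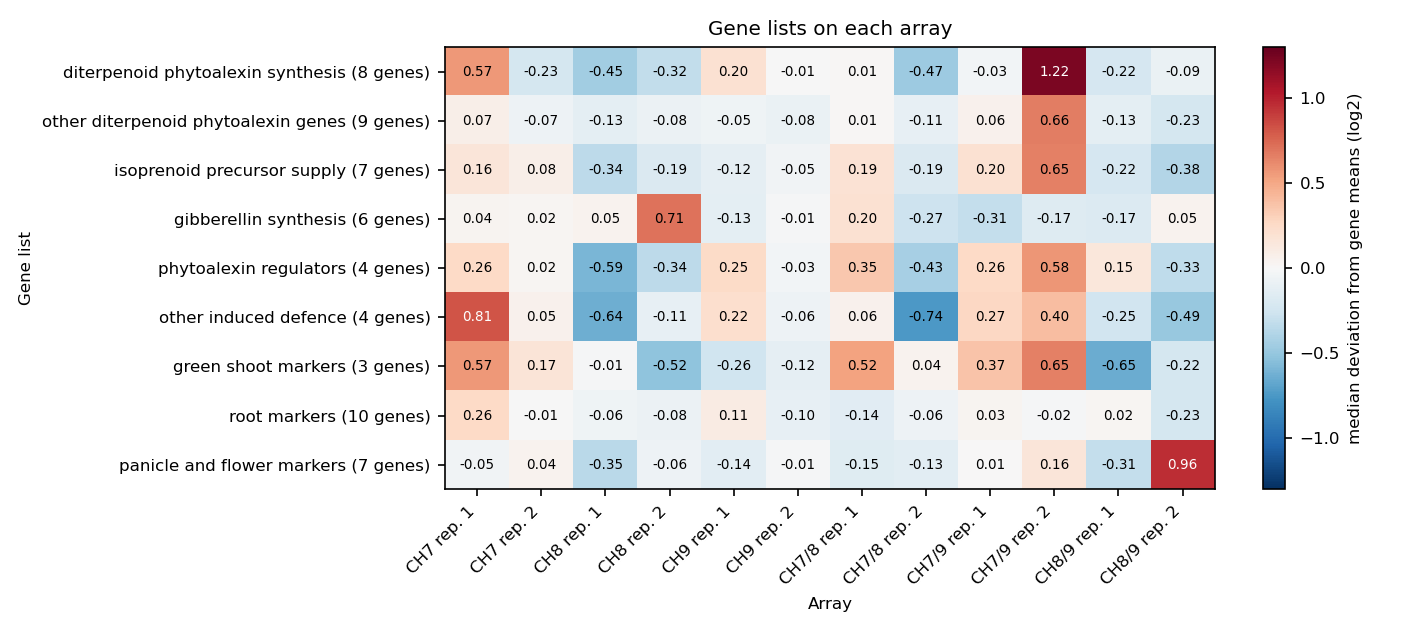
Median deviation of each gene list from the genes' own means over the 12 arrays, in log2 units, with 1 row per list, 1 column per array and the number of measured genes in brackets. The diterpenoid phytoalexin synthesis genes reached 0.57 in ‘CH7’ replicate 1 and 1.22 in ‘CH7/9’ replicate 2, and the panicle and flower markers 0.96 in ‘CH8/9’ replicate 2.

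The named genes outside all lists whose pattern over the 12 arrays was most like each member were found among 2645 genes. They were *Hd3a* for *CPS2* (r = 0.95), *OsTBT2* for *CPS4* (0.91), *APG4A* for *KSL4* (0.83), *SPL9* for *KSL7* (0.89), *ILL2* for *KSL10* (0.93), *CCD8B* for *CYP99A3* (0.83), *CHS* for *CYP76M7* (0.82) and *ABCG35* for *CYP76M8* (0.83). Each is the highest of many correlations over few arrays and is given as a description. *Hd3a* was dim, at a mean of 1.56. The second gene for *CPS2*, *AMT2-1*, had nearly the same r (0.947 for both) at a mean of 5.34.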

How the data were processed

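The authors deposited 1 normalized intensity per probe set and array on a linear scale. Their methods name Robust Multi-Array Average and the submitters' notes name MAS5, with no version, and which of them made the values is not known. The methods state 3 independent plants per line, and 2 arrays per line were analysed here. Log2 of the intensity was taken with no pseudocount. Line means were fitted to 54922 probe sets with limma (version 3.58.1, R 4.3.3), with moderated tests and Benjamini-Hochberg adjustment over all probe sets. The script was tested on simulated data. The methods' SAM test was not run. The number of arrays limits the precision. Gene names came from the platform annotation, which gives 24080 probe sets 1 gene, 95 several and 30747 none, and the brightest probe set stood for a gene. All members were described. Of the other pathway lists, genes called between pairs of lines and the ends of ‘CH8’ minus ‘CH7’ were named. All measured regulators and other induced defence genes were also named, once their values were known. Organ marker lists were summarised, with a few markers named once their values were known. The members and lists were chosen with earlier results of these data known, and some list symbols were added once the annotation had been read. Alternatives covered scaling, pseudocounts, dim probe sets, spread, samples, replicate block and left-out arrays.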

Additional observations from a re-analysis of the deposited data

Results flagged for a closer look

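In 3 cases the departure of a hybrid from the mean of its parents ran in opposite directions in 2 hybrids on every array, and the difference between the departures was tested with limma as a contrast added after the data were seen. *CPS2* departed by 0.87 in ‘CH7/9’ (0.51 and 1.23 on its arrays) and by -0.33 in ‘CH8/9’ (-0.09 and -0.57), a difference of 1.20 (SE 0.45, adjusted p = 0.350). *CYP99A3* departed by -0.43 in ‘CH7/8’ (-0.45 and -0.40) and by 0.51 in ‘CH7/9’ (0.28 and 0.74), a difference of -0.94 (SE 0.40, adjusted p = 0.645). *KSL4* departed by -0.56 in ‘CH7/8’ (-0.65 and -0.46) and by 0.54 in ‘CH8/9’ (0.77 and 0.32), a difference of -1.10 (SE 1.03, adjusted p = 0.999). None of these differences was called. The parents' means enter both departures of a pair, since each pair of hybrids shares a parent.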

How the results depend on the processing

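Of 389 counts of members called under other settings, 380 equalled the reported 0 and 9 became 1. For ‘CH8’ minus ‘CH7’ the count was 1 (*CPS4*) with the brighter probe sets only, where 2 members were tested, with array weights and with the mean of all probe sets of a gene, and it ranged from 0 to 1 when single arrays were left out. The range was also 0 to 1 for ‘CH7/9’ minus ‘CH7’, ‘CH7/9’ minus its mid-parent value, the test among the 6 lines, and the departure of ‘CH7/9’ against that of ‘CH8/9’, in each case with 1 call when ‘CH7/9’ replicate 1 was left out, and 0 to 0 for the other comparisons. The *CPS4* difference between ‘CH8’ and ‘CH7’ ran from -2.63 to -0.56 (adjusted p from 0.0434 to 0.322), with -0.56 at a pseudocount of 50. All 202 repeats of the gene differences with an unadjusted p under 0.05 kept their direction, but these differences were picked by that p in the same data. Many settings, such as leaving out an array of a line not compared, cannot change a difference. The count is therefore no support for the differences. Leaving out ‘CH7’ replicate 1 turned the members' median in ‘CH7/8’ minus ‘CH7’ from -0.49 to 0.05, and leaving out ‘CH7/9’ replicate 2 turned that in ‘CH7/9’ minus ‘CH9’ from 0.44 to -0.07 and that in ‘CH7/9’ minus ‘CH7’ from 0.29 to -0.09; the cause was not tested. Same-numbered replicates showed no common deviation over the lines (r from -0.33 to 0.20 over 15 pairs of lines, above 0.1 in 2). The labels do not state whether the numbers pair plants, and these correlations cannot decide it. A fit with the replicate number as a block gave 0 members called in every comparison and an adjusted p of 0.0737 for *CPS4* in ‘CH8’ minus ‘CH7’. With 2 arrays per line and dim signals, small differences could not be shown.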
